A study of Mus musculus with 9 samples.

Results

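The Rab GTPases, a family of small membrane-bound switches, were examined in macrophages sorted from the visceral fat of mice with and without Nucb2. The genes were taken as every row of the deposited table whose symbol begins with Rab and a digit, which gave 66 of 14905 genes. Of these, 55 encode Rab GTPases, 9 encode proteins that act on Rabs or bind them, and 2 are antisense RNAs. The rule reads symbols, but the table had been filtered before deposit, with a lowest mean over libraries of 5.09 normalized counts. Rab genes absent from the filtered table are not covered. The family was also picked with earlier results of these data known. The design held 5 libraries from Nucb2-/- mice (KO) and 4 from wild type mice (WT), both on the C57BL/6 background strain. Cells positive for F4/80 and CD11b were sorted from visceral adipose tissue and their messenger RNA was sequenced. The series title places the study in obesity and insulin sensitivity; the labels give no diet, age or sex, and do not say whether each library came from its own mouse. The name of the deposited table carries the letters HFD, which no label explains. The spread behind each p-value is therefore that of the libraries, and part of it may be technical.

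A Rab switches between a GTP-bound form, which sits on a membrane and recruits effector proteins, and a GDP-bound form that is extracted from it. Exchange factors load GTP, activating proteins speed its hydrolysis, and prenylation of the C-terminus anchors the protein. Different Rabs mark different compartments. In macrophages they are best known for moving cargo from the endoplasmic reticulum through the Golgi to the surface, for secreting cytokines and granule contents, and for turning a phagosome into a degradative phagolysosome.

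The targeted gene, Nucb2, separated the groups: it had 1493, 1466, 1623, 1165 and 1752 normalized counts in KO replicates 1 to 5 and 4457, 4253, 5233 and 3311 in WT replicates 1 to 4. The genotype labels thus matched its level, and the transcript was still present in the KO libraries. The sort antigens were high in all 9 libraries, at 85568 to 118970 normalized counts for Adgre1 (F4/80) and 19952 to 25401 for Itgam (CD11b). Adgre1 had 91199 ± 5643 in KO and 106114 ± 8809 in WT (± SD over 5 and 4 libraries), a log2 difference of -0.22 (limma adjusted p = 0.28), and Itgam had 23739 ± 1945 in KO and 20943 ± 1097 in WT (± SD over 5 and 4 libraries), a difference of 0.18 (limma adjusted p = 0.52). Of 10 macrophage markers, 4 were lower and 1 higher in KO at an unadjusted limma p under 0.05, and their median log2 difference was -0.12. All 10 had a mean of 1000 or more normalized counts. Of all genes with such a mean 12.3% reached that p, 6.92% as lower in KO. Markers of other cell types were measured too. The summed level of 8 fibroblast markers was 287895 to 447690 in KO and 201244 to 336565 in WT, beside 1342837 to 1449471 and 1429074 to 1614604 for 10 macrophage markers. Summed mast cell, eosinophil and basophil markers (11 genes) were 1947 to 4037 in KO and 6557 to 11504 in WT, and endothelial markers (12 genes) 6300 to 12678 and 2826 to 5062. Dendritic cell markers (7 genes) summed to 10773 to 13797 in KO and 6818 to 10415 in WT, and mesothelial markers (9 genes) to 6921 to 21431 and 3205 to 9381. Platelet markers (5 genes, 1 with a mean of 1000 or more) summed to 37026 to 51116 in KO and 35692 to 53465 in WT. Summed neutrophil, T and NK cell, B cell and adipocyte markers overlapped between the groups. None of the measured markers in these lists was at the floor in all 9 libraries. The part of these cells in the Rab values was not tested. Library totals, derived from the step between values, were 74937721 to 85200098 reads in 6 deeper libraries. The 3 shallower ones, KO replicate 5 with WT replicates 3 and 4, had 51148956 to 55004978.

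Levels of the 55 GTPase genes were led by a few members in every library. A level is given here as the normalized count per kb of merged exon, so that genes of different length can be compared. Rab7, which drives fusion of late endosomes and phagosomes with lysosomes, was the highest in 9 of 9 libraries at 14296 ± 1072 in KO and 14299 ± 1048 in WT (normalized counts per kb; ± SD over 5 and 4 libraries). Its level lay at the 98.1st percentile of the 14395 genes with a known length. Rab8b, which carries cargo from the Golgi and recycling endosomes to the plasma membrane, came next in 9 of 9 libraries, at 8106 ± 469 in KO and 9256 ± 512 in WT (normalized counts per kb; ± SD over 5 and 4 libraries). The ranges of these 2 genes did not overlap each other or that of the third, Rab7b, at 4987 ± 318 in KO and 6022 ± 769 in WT (normalized counts per kb; ± SD over 5 and 4 libraries). Rab31, Rab11a and Rab1a followed, and the ranges of neighbours overlapped from Rab7b down to Rab1a. The 5 highest genes held 50.6% of the summed per-kb level of all 55, and the 19 highest held 91.5%. At the other end, 12 of the 55 GTPase genes were at the floor of the table in 1 or more libraries, as were 13 of the 66 Rab-named genes and 19.8% of all genes.

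**Figure D1:**
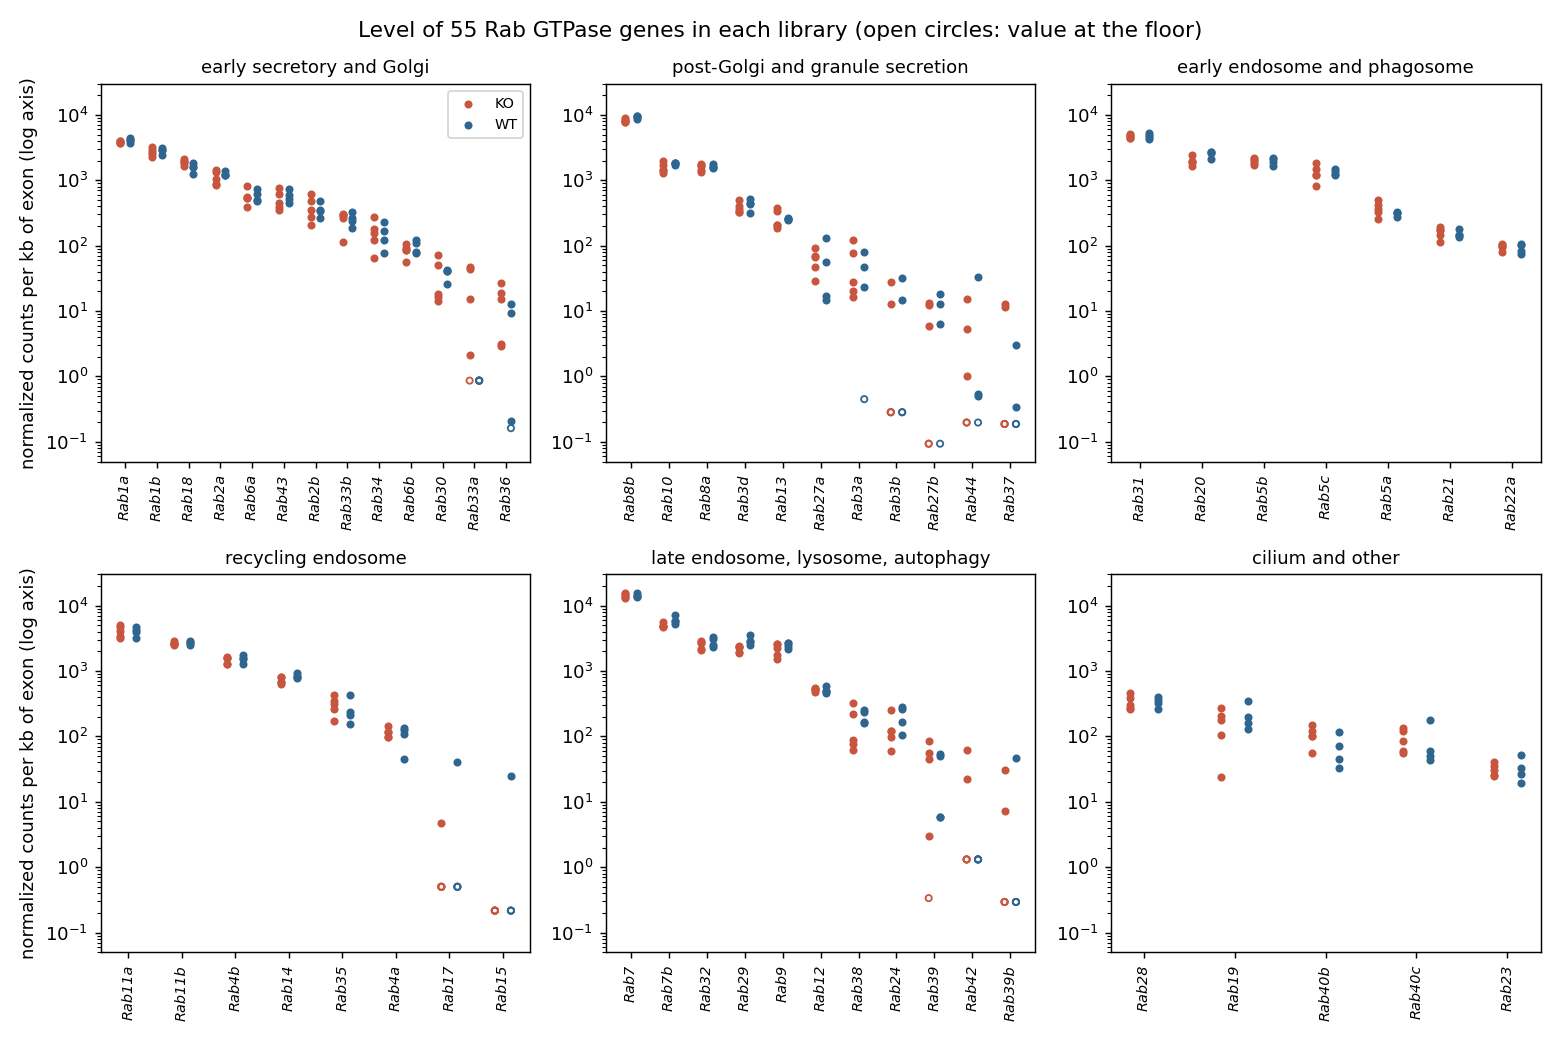
Level of the 55 Rab GTPase genes in each library, as normalized counts per kb of merged exon on a log axis, in 6 panels by role; red points are KO libraries, blue points WT libraries, and open circles are values at the floor of the table. Rab7 and Rab8b stand above the rest, KO and WT points overlap for nearly every gene, and genes below about 100 per kb scatter widely within both groups.

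By role, the 11 genes of late endosomes, lysosomes, lysosome-related organelles and autophagy made up 37.9% ± 0.873 of the summed per-kb level in KO and 38.7% ± 0.442 in WT (± SD over 5 and 4 libraries). The 11 post-Golgi and granule secretion genes made up 16.9% ± 0.97 and 17.7% ± 0.711. Early secretory and Golgi genes, 13 in number, held 16.3% ± 0.612 and 15.5% ± 0.754. The 7 genes of early endosomes and phagosomes held 14.8% ± 1.02 and 14.6% ± 0.358, and the 8 recycling endosome genes 13.1% ± 1.04 and 12.4% ± 0.833. The remaining 5 held 1.01% ± 0.154 and 0.952% ± 0.189. KO and WT ranges overlapped for each of the 6 roles. The summed level itself was 71299 ± 1880 per kb in KO and 76052 ± 3056 in WT, with KO replicate 4 (74208) above WT replicate 3 (73978). In bulk RNA, fewer cells of a type and less RNA per cell cannot be told apart, so these sums describe the sorted sample and not the single cell.

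**Figure D2:**
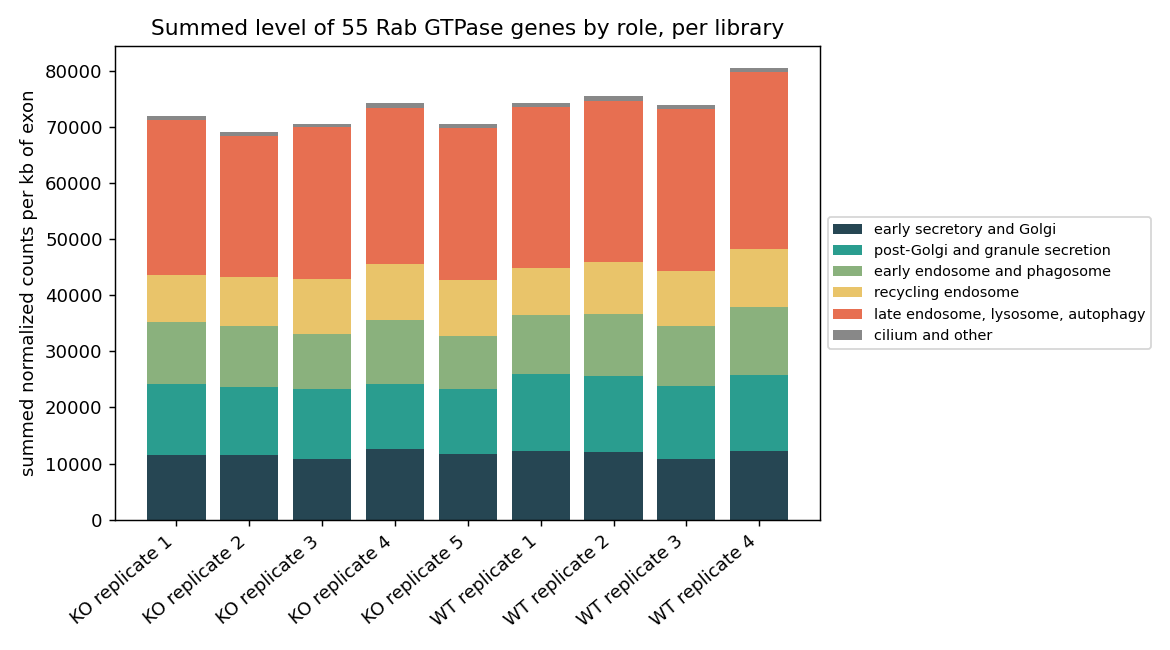
Summed normalized counts per kb of merged exon over 55 Rab GTPase genes in each of the 9 libraries, stacked by role. The late endosome, lysosome and autophagy part is the largest in every bar, between 36.4% and 39.1% of the bar, and total heights run from 69219 to 80504.

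The comparison of KO with WT asks which transcripts differ when Nucb2 is lost. None of the 66 Rab-named genes passed it: 0 were higher and 0 lower at an adjusted p of 0.05 (limma, Benjamini-Hochberg adjustment over 14905 genes). Of all genes 0.309% passed, 0.181% higher and 0.127% lower in KO. The smallest adjusted p was 0.27, for Rab29. At an unadjusted p under 0.05 there were 7 members of 66 (10.6%), 2 higher and 5 lower in KO, against 9.14% of all genes (5.37% higher and 3.78% lower). Of the 2 higher ones, Rab33a was at the floor in all 4 WT libraries and was kept in the filtered table only through its KO values. With a pseudocount of 10 there were 6 members, 1 higher and 5 lower, against 9.2% of all genes. The ranges of KO and WT libraries did not overlap for 1 member, Rab29, against 3.15% of all genes, or 1.6% counting those lower in KO. Limma-voom on reads also passed 0 members, with 6 at an unadjusted p under 0.05. Members were not called under any of 19 alternative settings, and the lowest adjusted p among them was 0.19, for Rab29 without WT replicate 1. With the replicate block and in the 6 deeper libraries 0 of all genes were called, so those 2 settings say little about the members. The median log2 difference over the 66 was -0.02, beside 0.02 over all genes.

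How small a difference could have been seen depended on the level. For the 32 members with a mean of 1000 or more normalized counts, the 95% interval of the log2 difference extended 0.15 to 0.61 to either side of the estimate, with a median of 0.3. The estimates themselves lay between -0.43 and 0.28, and 5 of the 32 were lower in KO at an unadjusted p under 0.05, against 6.92% of all genes with such a mean. For the 22 members with a mean of 100 to 1000 the interval extended 0.51 to 2.94, and for the 12 members under 100 it extended 1.94 to 3.49. In the lowest class the median coefficient of variation was 136% among KO and 121% among WT libraries, against 14.7% and 11.8% in the highest. A missed threshold does not show equal levels, least of all for these low genes.

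**Figure D3:**
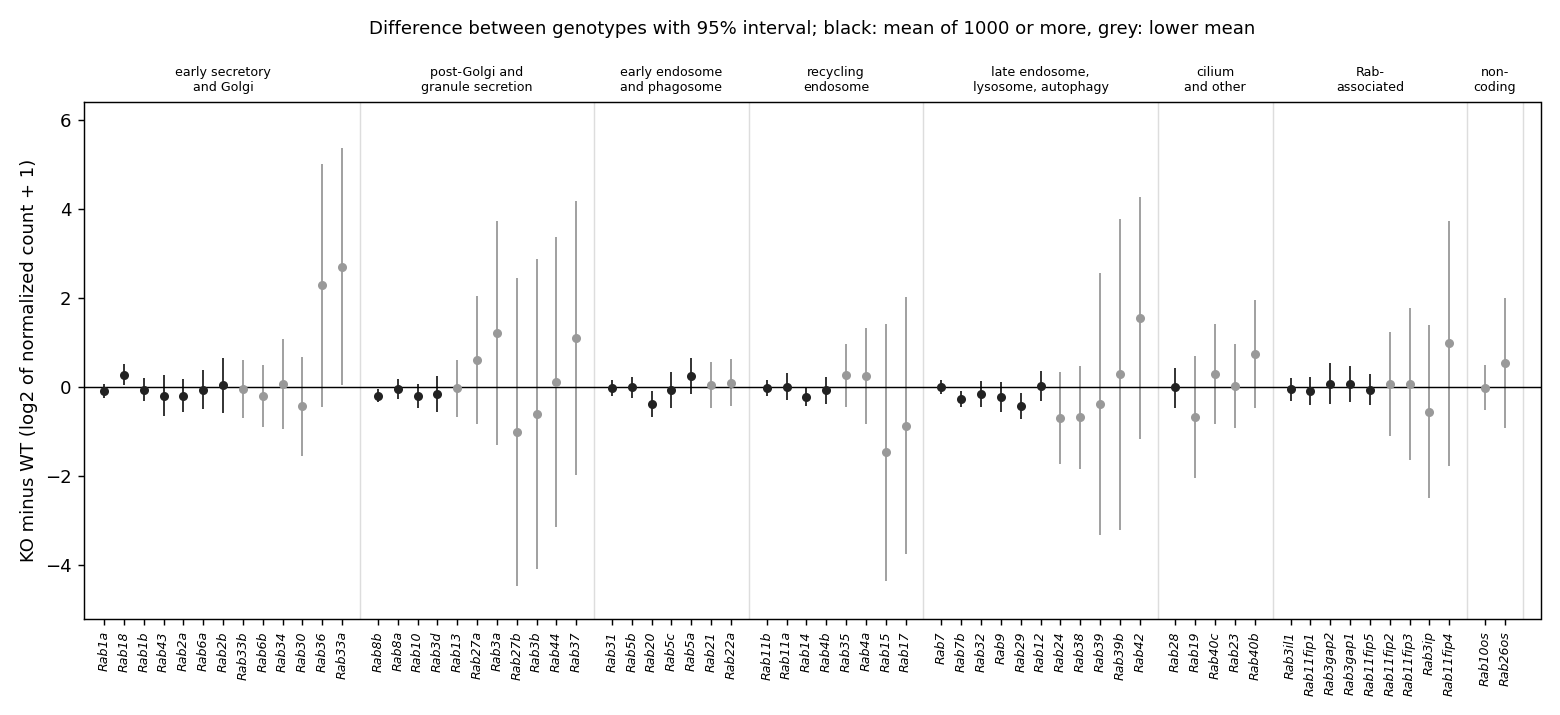
KO minus WT difference of each of the 66 Rab-named genes on the scale of log2(normalized count + 1), with its 95% interval, grouped by role and ordered by mean level within a role; black marks members with a mean of 1000 or more, grey the others. Black intervals extend 0.15 to 0.61 to either side of the estimate, while the widest grey ones reach several log2 units. For 6 of the 32 black members the interval leaves out 0 (unadjusted limma p under 0.05), and none passed the adjusted test.

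The early secretory and Golgi genes were carried by Rab1a and Rab1b, which control transport from the endoplasmic reticulum to the Golgi. Of 13 members 0 passed, 5 lay above 0 and 8 below, and the median log2 difference was -0.05. Rab1a had 14934, 14260, 14830, 15317 and 14187 normalized counts in KO replicates 1 to 5 and 15776, 15597, 14124 and 16812 in WT replicates 1 to 4. Its log2 difference was -0.08 (SE 0.08; limma adjusted p = 0.8), with a 95% interval of -0.25 to 0.08. Rab1b had 6186 ± 825 in KO and 6428 ± 719 in WT (± SD over 5 and 4 libraries), and per length Rab1a exceeded it 1.27 to 1.68 times in each library. Rab18, a GTPase of the endoplasmic reticulum and of lipid droplets, had 11440, 12364, 12894, 13356 and 14509 normalized counts in KO replicates 1 to 5 and 11000, 8527, 10830 and 12524 in WT replicates 1 to 4. It was higher on average in KO, with WT replicate 4 inside the KO range. Rab18 differed by 0.28 (SE 0.11; limma adjusted p = 0.43), and by 0.37 within the 6 deeper libraries and 0.32 within the 3 shallower ones. Here and below, a shallower difference sets KO replicate 5 alone against WT replicates 3 and 4, so it has no spread in KO. Rab2a, which acts between the endoplasmic reticulum and the Golgi, had 1830 to 3072 in KO and 2521 to 2967 in WT, a difference of -0.19 (limma adjusted p = 0.79).

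Rab33a and Rab36 were low and scattered. Rab33a, a relative of the Golgi and autophagy GTPase Rab33b, was at the floor in each of the 4 WT libraries. In KO replicates 1 to 5 it had 55.1, 50, 2.46, 17.8 and 1 normalized counts, so KO replicate 5 was at the floor as well. Its KO mean was at least 7.55-fold higher than a limit of 3 reads per WT library (3.35 normalized counts), a bound that covers counting error only and leaves out the spread between KO libraries. The limma adjusted p was 0.54. The deposited table was filtered (lowest mean over libraries 5.09), so Rab33a was kept only through its KO values. Its bound is therefore no evidence of a difference. The same limit holds for the later bounds of Rab15, Rab42 and Rab11fip4. Rab36 had 166, 17.8, 93.6, 117 and 19.1 normalized counts in KO replicates 1 to 5 and 78.6, 1, 1.27 and 57.3 in WT replicates 1 to 4, and its adjusted p was 0.62. The other members of the group lay between 138 and 4169 normalized counts in single libraries and had differences of -0.43 (Rab30) to 0.07 (Rab34), with adjusted p between 0.83 and 0.98.

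Secretion downstream of the Golgi was represented mainly by Rab8b. Rab8b had 41973, 37164, 38847, 36262 and 37584 normalized counts in KO replicates 1 to 5 and 46138, 43361, 40603 and 45123 in WT replicates 1 to 4. KO replicate 1 was the only KO library inside the WT range, above WT replicate 3. Rab8b differed by -0.19 (SE 0.07; limma adjusted p = 0.36), with a KO mean at 87.6% of WT. It was -0.22 and -0.19 within the deeper and the shallower libraries. Its paralogue Rab8a had 6291 to 8325 in KO and 7160 to 8241 in WT, a difference of -0.04 with a 95% interval of -0.26 to 0.19. Per length, Rab8b exceeded Rab8a in 9 of 9 libraries, by 4.77 to 5.7 times in KO and 5.2 to 6.37 times in WT. Rab10, which moves the glucose transporter GLUT4 to the surface in fat cells and Toll-like receptor 4 in macrophages, had 4595, 6985, 4972, 6033 and 5101 normalized counts in KO replicates 1 to 5 and 5939, 6393, 6362 and 6380 in WT replicates 1 to 4. The WT libraries lay close together and inside the KO range, and the difference was -0.20 (limma adjusted p = 0.67). Of the 11 members 0 passed, with 4 above 0, 7 below and a median of -0.04.

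**Figure D4:**
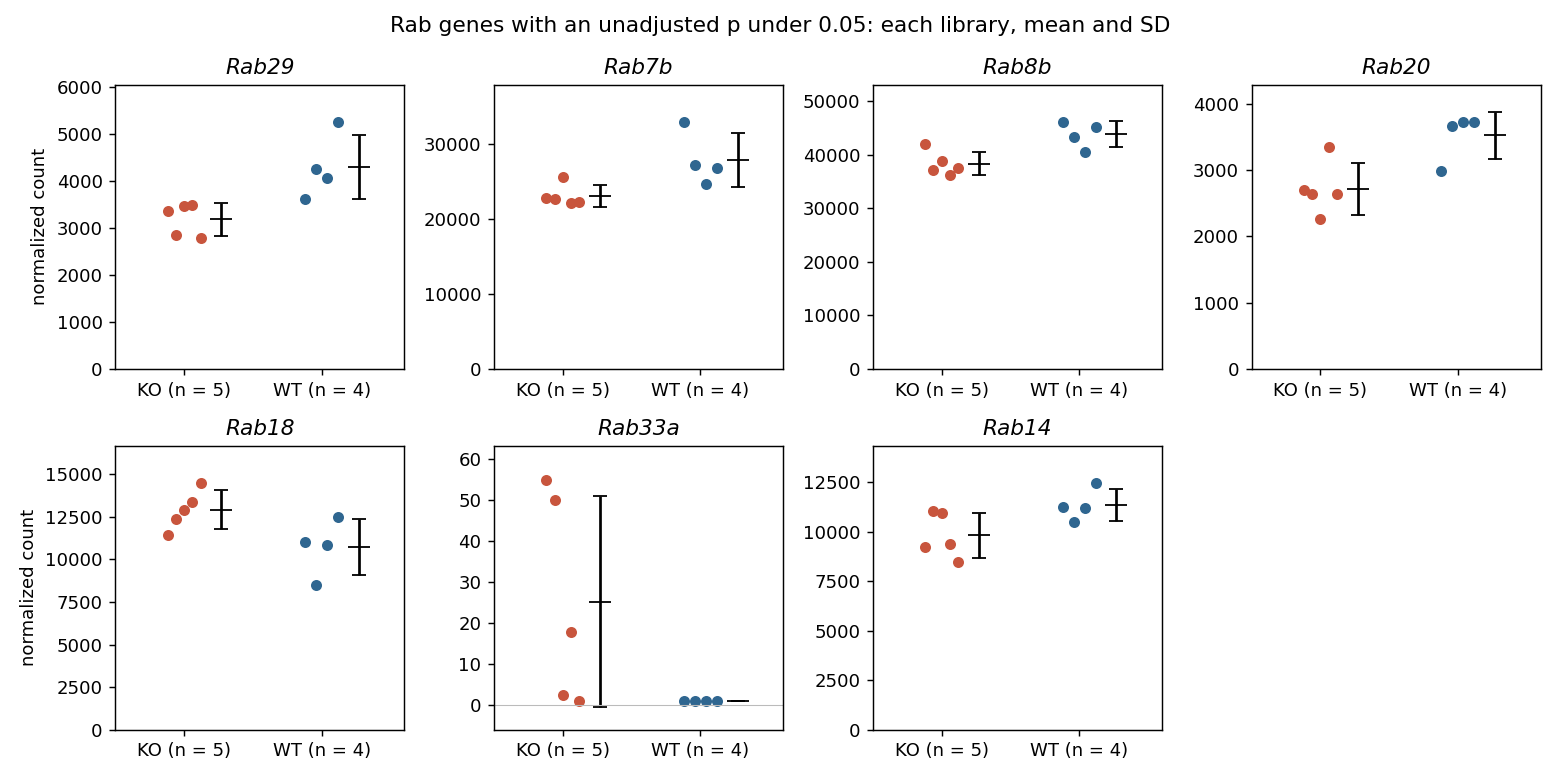
Normalized count in each KO library (red, n = 5) and WT library (blue, n = 4) for the 7 Rab genes with an unadjusted p under 0.05, with the mean and SD of each group in black. Groups are fully apart only for Rab29 (2780 to 3484 in KO, 3626 to 5258 in WT), and none of the 7 passed the adjusted test. Rab33a was kept in the filtered table only through its KO values.

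Among the Rabs of regulated granule release, Rab27b, Rab3a, Rab3b, Rab37 and Rab44 each had values at the floor and scattered widely. Rab27a, which docks lysosome-related organelles and exosome-bearing endosomes at the plasma membrane, had 355, 266, 183, 111 and 262 normalized counts in KO replicates 1 to 5 and 65.8, 57.2, 511 and 216 in WT replicates 1 to 4. These ranges overlapped, with a difference of 0.61 (limma adjusted p = 0.82). Rab27b, its paralogue in secretory cells such as mast cells and platelets, had 140, 134, 1, 63.6 and 1 normalized counts in KO replicates 1 to 5 and 135, 196, 1 and 68.2 in WT replicates 1 to 4. It was thus at the floor in 2 KO libraries and 1 WT library. Among the Rab3 genes of regulated exocytosis, Rab3d exceeded Rab3a per length in 9 of 9 libraries and had 1377 to 2064 in KO and 1325 to 2138 in WT. Rab3a had 36.2, 270, 171, 45.7 and 62.4 normalized counts in KO replicates 1 to 5 and 106, 1, 175 and 51.8 in WT replicates 1 to 4, with WT replicate 2 at the floor. Rab3b had 99.1, 1, 45.2, 1 and 1 normalized counts in KO replicates 1 to 5 and 52.1, 1, 1 and 113 in WT replicates 1 to 4. Rab37 and Rab44, both described in mast cell granule release, were low. Rab37 had 1 to 69 in KO and 1 to 16.4 in WT, and Rab44 had 1 to 77.2 in KO and 1 to 165 in WT. Rab44 was highest in WT replicate 1 (165), and Rab37 in KO replicates 3 and 5 (69 and 61.1). The summed mast cell, eosinophil and basophil markers did not overlap between the groups. Rab27b, Rab37 and Rab44 had floor values in both groups, so their ranges had to overlap and cannot be set against the markers. Of the 11 single markers 6 had no overlap in either direction, against 3.15% of all genes. The adjusted limma test passed 4 of them as lower in KO, against 0.127% of all genes. Rab13 had 422 to 874 in KO and 569 to 616 in WT.

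On early endosomes and phagosomes Rab31, which works between the Golgi and endosomes and on phagosomes, was the highest per length and had 16669 to 19596 in KO and 16218 to 20376 in WT. Its difference was -0.01 (limma adjusted p = 0.98), with a 95% interval of -0.19 to 0.17. Rab20, which takes part in phagosome maturation, had 2703, 2639, 2259, 3340 and 2635 normalized counts in KO replicates 1 to 5 and 2986, 3656, 3721 and 3723 in WT replicates 1 to 4. Of the WT libraries, 3 lay above all KO libraries and WT replicate 1 lay inside the KO range. Rab20 differed by -0.38 (SE 0.14; limma adjusted p = 0.36), with a KO mean at 77.1% of WT. Within the deeper and shallower libraries the difference was -0.29 and -0.50. The 3 Rab5 genes encode the master GTPases of early endosome fusion. Rab5b had 7202 to 9204 in KO and 6978 to 9327 in WT. Rab5c had 1811 to 4092 in KO and 2630 to 3283 in WT, and Rab5a had 1357 to 2657 in KO and 1461 to 1696 in WT. Per length Rab5c exceeded Rab5a 2.4 to 5.14 times in 9 of 9 libraries, and Rab5b exceeded Rab5c in 8 of 9. Rab5a had the largest positive difference in the group, 0.25 (limma adjusted p = 0.74). It was 0.41 in the deeper libraries and -0.29 in the shallower ones, where KO had 1 library. Rab5c had a difference of -0.06 (limma adjusted p = 0.94). Rab22a and Rab21, which act on endosomal sorting and integrin traffic, differed by 0.10 and 0.06. Of 7 members 0 passed, with 3 above 0 and 4 below.

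Recycling endosomes return receptors to the surface, and their main GTPases Rab11a and Rab11b were both abundant. Rab11a had 10397, 9487, 12077, 13912 and 14896 normalized counts in KO replicates 1 to 5 and 9569, 11669, 12694 and 14010 in WT replicates 1 to 4, a difference of 0.01 (limma adjusted p = 0.98). Rab11b had 15361 to 17883 in KO and 15270 to 17476 in WT, a difference of -0.02 (limma adjusted p = 0.95). Their 95% intervals were -0.28 to 0.31 and -0.19 to 0.15. Rab14, which joins the Golgi to early endosomes and phagosomes, had 9242, 11051, 10913, 9369 and 8476 normalized counts in KO replicates 1 to 5 and 11218, 10491, 11174 and 12462 in WT replicates 1 to 4. KO replicates 2 and 3 lay inside the WT range. The difference of -0.21 (SE 0.10; limma adjusted p = 0.54) was -0.10 in the deeper libraries and -0.48 in the shallower ones. Rab4b, of the fast recycling route, exceeded Rab4a per length 8.74 to 38 times. Rab35 had 480 to 1218 in KO and 437 to 1206 in WT, with a difference of 0.27 (limma adjusted p = 0.84). That difference was 0.86 in the deeper libraries and -0.90 in the shallower ones, where KO had 1 library. Rab17, a GTPase of polarized epithelium, was at the floor in 7 libraries and had 9.3 normalized counts in KO replicate 4 and 82.1 in WT replicate 2. Rab15 was at the floor in 8 libraries and had 115 in WT replicate 3. Against a limit of 3 reads per KO library (2.75 normalized counts) the KO level of Rab15 was at least 10.8-fold lower than the WT mean. That mean rests on 1 library, through which alone Rab15 was kept in the filtered table. Without that library both groups were at the floor. Of 8 members 0 passed, with 3 above 0 and 5 below.

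The lysosomal and autophagy genes held the smallest p-values of the family. Rab29, which acts at the Golgi and lysosomes and is known as a partner of the kinase LRRK2, had 3361, 2841, 3469, 3484 and 2780 normalized counts in KO replicates 1 to 5 and 3626, 4254, 4059 and 5258 in WT replicates 1 to 4. Each KO library was below each WT library. Its mean in KO reached 74.1% of that in WT, and the difference of -0.43 (SE 0.14; limma adjusted p = 0.27) had a 95% interval of -0.71 to -0.14. The log2 difference was -0.26 within the deeper and -0.73 within the shallower libraries, where KO had 1 library. Rab7b, a GTPase of late endosomes known in macrophages for sending Toll-like receptors to lysosomes, had 22773, 22642, 25634, 22048 and 22191 normalized counts in KO replicates 1 to 5 and 32906, 27164, 24593 and 26715 in WT replicates 1 to 4. KO replicate 3 lay above WT replicate 3, and the other KO libraries lay below all WT libraries. The log2 difference of Rab7b, -0.27 (SE 0.09; limma adjusted p = 0.29), was -0.36 and -0.21 within the deeper and shallower libraries. Rab7 itself had 39814, 33653, 35690, 40308 and 37091 normalized counts in KO replicates 1 to 5 and 34938, 36663, 36424 and 41260 in WT replicates 1 to 4. Its groups overlapped almost entirely, and the 95% interval of the difference was -0.16 to 0.16. Per length, Rab7 exceeded Rab7b 2.47 to 3.24 times in KO and 1.88 to 2.74 times in WT, ranges that overlap.

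Of the 11 members of this group 0 passed, 3 lay above 0 and 8 below, and the median log2 difference was -0.22 beside 0.02 over all genes. That median was -0.08 in the 6 deeper libraries, -0.07 with depth class as a term, and -0.10 without KO replicate 3 or without WT replicate 4. Rab9, which returns mannose 6-phosphate receptors from late endosomes to the Golgi, had 2671, 3108, 4594, 3963 and 4479 normalized counts in KO replicates 1 to 5 and 4186, 4607, 4708 and 3740 in WT replicates 1 to 4. Its difference of -0.22 (limma adjusted p = 0.73) was -0.32 in the deeper and 0.09 in the shallower libraries. Rab32, a GTPase of lysosome-related organelles, had 4841 to 6730 in KO and 5537 to 7622 in WT and exceeded its paralogue Rab38 per length 6.44 to 45.8 times. Rab38 had 99.1 to 507 in KO and 256 to 393 in WT, with a difference of -0.67 (limma adjusted p = 0.76). Rab24, linked to autophagy, had 196, 511, 245, 242 and 122 normalized counts in KO replicates 1 to 5 and 333, 527, 214 and 562 in WT replicates 1 to 4, a difference of -0.69 (limma adjusted p = 0.71). Rab12 had 1473 to 1689 in KO and 1414 to 1793 in WT. Rab39 ranged from the floor to 253 in KO and from 17.4 to 160 in WT. Rab39b was at the floor in 3 KO and 3 WT libraries, with 103 in KO replicate 2, 24.2 in KO replicate 5 and 158 in WT replicate 4. Rab42 was at the floor in all WT libraries and in 3 KO libraries, with 16.9 and 47.6 in KO replicates 2 and 3. Its KO mean was at least 4.04-fold higher than the limit of 3 reads per WT library (3.35 normalized counts), and rests on those 2 libraries. Only through them was Rab42 kept in the filtered table.

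The 5 remaining GTPase genes had means of 31.9 (Rab23) to 335 (Rab28) normalized counts per kb. Rab28, found at the cilium base, had 1168 to 2121 in KO and 1181 to 1802 in WT, a difference of -0.01 (limma adjusted p = 1). Rab23, an inhibitor of hedgehog signalling, had 202 to 334 in KO and 158 to 426 in WT, a difference of 0.02 (limma adjusted p = 0.99). Rab40b and Rab40c, which carry a SOCS box and join ubiquitin ligases, had differences of 0.75 (limma adjusted p = 0.74) and 0.30 (limma adjusted p = 0.89). Rab19 had 37.8 to 435 in KO and 206 to 538 in WT, a difference of -0.67 (limma adjusted p = 0.8). Without KO replicate 3, the lowest library, it was -0.09.

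Among the 9 genes named for the Rabs they act on, 0 passed and 0 had an unadjusted p under 0.05. Rab3il1, an exchange factor also called GRAB, was the highest per length, with 5645 to 8871 in KO and 6418 to 7286 in WT and a difference of -0.05 (limma adjusted p = 0.93). Rab3ip, or Rabin8, exchanges nucleotide on Rab8 and was lower per length, with 8.53 to 124 in KO and 24.6 to 156 in WT and a difference of -0.55 (limma adjusted p = 0.88). The subunits of the Rab3 GTPase-activating complex, which also serves as an exchange factor for Rab18, did not differ by more than their spread: Rab3gap1 had 1413 to 2618 in KO and 1672 to 2409 in WT, and Rab3gap2 had 1766 to 3453 in KO and 1638 to 3083 in WT. Of the Rab11 effectors of the Rab11fip family, Rab11fip1 and Rab11fip5 differed by -0.08 (limma adjusted p = 0.9) and -0.05 (limma adjusted p = 0.94), with means of 3136 and 2049 normalized counts over all libraries. Rab11fip2 and Rab11fip3 had means of 156 and 138. Rab11fip4 was at the floor in 8 libraries and had 59.4 in KO replicate 1. Its KO mean, at least 3.79-fold above the limit of 3 reads per WT library, thus comes from 1 library. Only through that library was Rab11fip4 kept in the filtered table. The antisense RNA Rab10os had 622 to 922 in KO and 682 to 971 in WT, and Rab26os had 78 to 135 in KO and 22.8 to 148 in WT. Rab10os overlaps Rab10 on the opposite strand, and since the use of strand in counting is not given in the sources used here, reads of the pair cannot be told apart.

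Genes of the wider Rab machinery were also not called. Over 125 measured genes for lipidation and escort, exchange factors, activating proteins, effectors and Rab-like GTPases, 0 passed in limma in either direction, where 0.309% of all genes did. At an unadjusted p under 0.05 there were 7 (5.6%), against 9.14% of all genes. The median difference was 0.05. By list, unadjusted p under 0.05 was reached by 0 of 8 lipidation and escort genes, 3 of 34 exchange factors, 1 of 32 activating proteins, 3 of 45 effectors and 0 of 6 Rab-like GTPases. Rabgef1, the exchange factor of Rab5 known as Rabex-5, came closest to the threshold. It had 8703, 8270, 8096, 8655 and 8166 normalized counts in KO replicates 1 to 5 and 10709, 12034, 9989 and 10563 in WT replicates 1 to 4. All KO libraries lay below all WT libraries, and Rabgef1 differed by -0.37 (SE 0.09; limma adjusted p = 0.096). Dennd4a, an exchange factor of Rab10, had 3431 to 5593 in KO and 2013 to 4181 in WT, a difference of 0.57 (limma adjusted p = 0.3). The activating proteins Tbc1d2b and Tbc1d7 differed by 0.44 (limma adjusted p = 0.33) and -0.59 (limma adjusted p = 0.58). Tbc1d2b had 1847 to 2265 in KO and 1338 to 1833 in WT, with no overlap. Over the 125 machinery genes 4 had ranges without overlap, in either direction, against 3.15% of all genes. Appl2, an endosomal Rab5 effector that binds adiponectin receptors, had 653 to 1414 in KO and 1116 to 1735 in WT, a difference of -0.57 (limma adjusted p = 0.49). Sytl4, the Rab27 effector granuphilin, had 1, 80.4, 90.4, 96.1 and 35.6 normalized counts in KO replicates 1 to 5 and 1, 1, 1 and 1.36 in WT replicates 1 to 4. KO replicate 1 was at the floor with 3 of the WT libraries, and the adjusted p was 0.25 (limma). Like Rab33a, Sytl4 was kept in the filtered table only through its KO values, so its difference is no evidence. It is 1 of the 3 effectors counted above. Chml and Rabggta, of Rab escort and geranylgeranylation, differed by -0.71 (limma adjusted p = 0.59) and 0.22 (limma adjusted p = 0.75). Rabl6 and Ift22 differed by -0.26 and -0.13.

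The start sites of the Rab-named genes were searched for the E-box CACGTG and for its longer palindrome, CACGTG with GT before it and AC after it, the element bound by the lysosomal regulators TFEB and TFE3. Both read the same on the other strand, and each palindrome contains a CACGTG. Another motif, GGAAGT preceded by GA, of the kind bound by the macrophage factor PU.1, was searched on both strands. Of the 66 genes, 54 matched a RefSeq promoter on GRCm38.p6 (72 windows of 250 bases before to 50 after a start). CACGTG was found for 9 of the 54 genes (16.7%), against 8.09% of the 27025 genes in the table of promoters. The palindrome was found for 3 (5.56%), against 0.37%, and the PU.1 motif for 3 others (5.56%), against 3.69%. These sets are unlike. The promoter table holds 32851 windows and includes genes absent from the filtered expression table, whereas every member is in it. The shares are therefore descriptive, and enrichment was not tested. These windows of 30 bases, written 5′ to 3′ on the gene's strand with the motif in capitals, show the 3 long matches and, for comparison, the shorter one at Rab20, whose difference was the largest of the early endosome group.
Rab5a: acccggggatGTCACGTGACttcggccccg
Rab21: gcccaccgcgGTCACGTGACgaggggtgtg
Rab24: cggcgcccgcGTCACGTGACcgggcgtccc
Rab20: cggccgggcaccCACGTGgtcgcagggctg
The Rab5a window lies at chr17:53479127-53479156, plus strand, with its CACGTG starting 95 bases before the start site. That of Rab21 is chr10:115315604-115315633, minus strand, 30 bases before it. The Rab24 window, chr13:55321961-55321990, minus strand, spans the start site itself. For Rab20 the window is chr8:11478669-11478698, minus strand, 46 bases before the start. The 3 genes with the long motif did not differ between genotypes in one direction: their log2 differences were 0.25 for Rab5a, 0.06 for Rab21 and -0.69 for Rab24, with adjusted p of 0.74, 0.96 and 0.71. A match of letters is a description of the window and not of binding.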

How the data were processed

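The authors deposited 1 table of linear signal values: scaled read counts, with 1 scaling factor for each library and a floor of 1. That these are scaled counts was read from the values: in each library 99.46% to 99.68% of values above 1 were whole multiples of 1 step (tolerance 0.1 of a step). The table had been filtered before deposit, and its lowest mean over libraries was 5.09 normalized counts. Among the genes kept, the floor held 6.29% to 9.91%, by library. Per the submitters' processing notes, CASAVA 1.8.2, HISAT, Partek, DESeq2 and mm10 were used, with no role stated. Per the labels' protocols, libraries were poly-A selected and strand-specific. How reads shared between near-identical copies were counted is not given in the sources used here, so values of close paralogues carry that uncertainty. Because of the floor, no count model was used for the main test, and limma-voom on step-derived reads served only as an alternative.

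Groups came from sample titles. The test was limma 3.58.1 (R 4.3.3) on log2(value + 1), where the added 1 is a pseudocount, with limma's trend option, genotype as the only term, all 9 libraries and Benjamini-Hochberg adjustment over 14905 genes. Differences are on that log2 scale, on which low genes show less than their true change. The scripts were first tested on simulated data. Lengths are merged exons of GENCODE release M21, matched by symbol for 14395 genes (96.6%); they include rarely used exons, which lowers a per-kb level. Promoters are RefSeq's. Figures were drawn with matplotlib 3.10.9. Alternatives were other pseudocounts, a mean filter, scalings, array weights, a replicate block, a term for depth class, the 6 deeper libraries alone, limma-voom on step-derived reads, and each library left out. The genes and lists were chosen with earlier results of these data known. Every Rab-named gene is counted. Named with values are members with ranges apart or a floor value, and per role the 4 of smallest p and 2 of highest per-kb level; of the machinery lists, the 2 of smallest p each. Other members named were picked after their values were seen.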

Additional observations from a re-analysis of the deposited data

Results flagged for a closer look

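In 19 of 148 groups (66 Rab-named and 10 machinery genes, leaving out 4 groups with all libraries at the floor), 1 library lay far from the others of its group, by the gap to its neighbour over the range of the group. For normally spread values chance flags about 1 in 20 groups; that rate does not apply to groups mostly at the floor, for which none was computed. Among abundant members, in normalized counts, the lone value was Rab2a 2967 in WT replicate 1, with 2573 next to it, Rab10 5939 in WT replicate 1, with 6362 next to it, Rab20 2986 in WT replicate 1, with 3656 next to it, Rab3il1 6418 in WT replicate 4, with 7190 next to it and Rab7b 25634 in KO replicate 3, with 22773 next to it. Lower genes were Rab26os (78 in KO replicate 3, with 120 next to it), Rab30 (254 in WT replicate 4, with 388 next to it), Rab33b (405 in KO replicate 2, with 924 next to it), Rab40c (548 in WT replicate 2, with 186 next to it) and Chml (210 in KO replicate 5, with 360 next to it). At or near the floor in the rest of the group were Rab15 (115 in WT replicate 3, with 1 next to it), Rab17 (9.3 in KO replicate 4, with 1 next to it, and 82.1 in WT replicate 2, with 1 next to it), Rab11fip4 (59.4 in KO replicate 1, with 1 next to it), Rab37 (16.4 in WT replicate 3, with 1.84 next to it), Rab39b (103 in KO replicate 2, with 24.2 next to it, and 158 in WT replicate 4, with 1 next to it), Rab44 (165 in WT replicate 1, with 2.73 next to it) and Sytl4 (1.36 in WT replicate 4, with 1 next to it). WT replicate 1 was the lone library for 4 of these, Rab2a, Rab10, Rab20 and Rab44. The 3 abundant ones did not point one way: WT replicate 1 was the highest for Rab2a and the lowest for Rab10 and Rab20.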

How the results depend on the processing

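No Rab-named or Rab machinery gene was called under any of the 19 alternatives (0 in each). Over all genes the count was 46, and 0 with the replicate block (1104 at an unadjusted p under 0.05), 0 in the 6 deeper libraries (1039) and 5 to 38 when 1 library was left out (38 without WT replicate 1, 5 to 19 without any other). The block pairs libraries by replicate number and drops KO replicate 5. The numbers did not pair the libraries: deviations of same-numbered libraries correlated at -0.014, 0.028, -0.003 and 0.045 over 11383 genes. Over the 66 Rab-named genes and 10 machinery genes named, 37 of 76 differences changed sign under 1 or more alternatives. Sign changes, as log2 differences, came with the replicate block (Rab10os 0.06, Rab11a -0.07, Rab11fip2 -0.04, Rab13 0.04, Rab1b 0.01, Rab2b -0.16, Rab31 0.02, Rab34 -0.01, Rab39b -0.15, Rab5b 0.02, Rab5c 0.09, Rab7 0.00), with array weights (Rab10os 0.02, Rab13 0.02), with median-ratio scaling (Rab11a 0.00), with quantile normalization (Rab11b 0.04, Rab11fip2 -0.10, Rab11fip3 -0.19, Rab23 -0.09, Rab31 0.04, Rab34 -0.04, Rab44 -0.65, Rab5b 0.03, Rab7 0.05), in the 6 deeper libraries (Rab11b 0.02, Rab11fip2 -0.30, Rab11fip3 -1.03, Rab12 -0.08, Rab13 0.07, Rab21 -0.07, Rab23 -0.03, Rab26os -0.09, Rab28 0.06, Rab2b -0.34, Rab31 0.02, Rab32 0.02, Rab34 -0.53, Rab39 0.72, Rab3b 0.18, Rab3gap2 -0.09, Rab40c -0.27, Rab43 0.16, Rab44 -0.92, Rab5b 0.08, Rab5c 0.15, Rab7 0.06), with limma-voom (Rab11fip2 -0.02, Rab11fip3 -0.08, Rab13 0.01, Rab2b -0.04, Rab34 -0.05, Rab44 -0.30, Rab5b 0.01, Rab7 0.01), with depth class as a term (Rab11fip3 -0.48, Rab28 0.14, Rab34 -0.05, Rab39 0.42, Rab3gap2 -0.01, Rab44 -0.36, Rab7 0.02), with a pseudocount of 10 (Rab39 0.01, Rab44 -0.06). Leaving out 1 library changed the sign for these, with the range over the 9 such fits: Rab10os -0.08 to 0.10, Rab11a -0.09 to 0.10, Rab11b -0.06 to 0.00, Rab11fip1 -0.17 to 0.01, Rab11fip2 -0.19 to 0.23, Rab11fip3 -0.39 to 0.63, Rab11fip5 -0.15 to 0.06, Rab12 -0.01 to 0.11, Rab13 -0.17 to 0.09, Rab17 -1.34 to 0.47, Rab1b -0.14 to 0.01, Rab21 -0.02 to 0.17, Rab23 -0.20 to 0.27, Rab26os -0.04 to 0.85, Rab28 -0.14 to 0.08, Rab2b -0.16 to 0.24, Rab31 -0.06 to 0.05, Rab33b -0.19 to 0.22, Rab34 -0.21 to 0.36, Rab39 -1.04 to 0.71, Rab39b -0.67 to 1.87, Rab3a -0.19 to 1.96, Rab3b -1.51 to 0.46, Rab3gap1 -0.01 to 0.21, Rab3gap2 -0.08 to 0.26, Rab3il1 -0.14 to 0.02, Rab3ip -1.14 to 0.12, Rab44 -0.67 to 1.56, Rab4a -0.11 to 0.42, Rab5b -0.08 to 0.06, Rab5c -0.20 to 0.09, Rab6a -0.20 to 0.07, Rab7 -0.03 to 0.05, Rab8a -0.08 to 0.02. Rab11fip4 went to 0.00 without KO replicate 1. Rab15 went to 0.00 once WT replicate 3 was absent, which includes the fit on the 6 deeper libraries. The adjusted p for all of these exceeded 0.05 under every alternative. Members under 100 normalized counts are limited by the spread between libraries and by the floor, which hides whether a library had 0 reads or, in 6 libraries, 1 read.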

Other observations

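Among the 32 Rab-named genes with a mean of 1000 or more normalized counts, 25 (78.1%) had a log2 difference below 0, where 55.2% of all 6257 genes with such a mean did. The median over the 32 was -0.06. The count below 0 was 26 with median-ratio scaling, 21 with quantile normalization, and 20 both in the 6 deeper libraries and without KO replicate 3. Members share libraries and are not independent, so no test was made. An unadjusted p under 0.05 was reached by 6 of the 32 (18.8%), against 12.3% of all genes with such a mean. The 10 macrophage markers, 7 of them below 0, had a median difference of -0.12, and their part in the Rab values was not tested.

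Rab7b and Rab29, the members with the smallest p-values, lie on the same strand of chromosome 1, from 131688695 to 131715439 and from 131867224 to 131872887 (GRCm38, GENCODE), 151.8 kb apart. The 3 measured genes between them, picked after their values were seen, were imprecise. On the log2 scale Slc26a9 differed by 1.26 (95% interval -1.27 to 3.80), Pm20d1 by 0.60 (-2.35 to 3.56) and Slc41a1 by 0.26 (-0.42 to 0.95). Each interval holds the Rab7b value of -0.27. The Rab29 value of -0.43 lies just below the Slc41a1 interval and inside those of Slc26a9 and Pm20d1. On the outer sides, Ctse before Rab7b differed by 1.51 (0.02 to 3) and Nucks1 after Rab29 by -0.23 (-0.54 to 0.08). None of these 5 genes passed the adjusted limma test, with adjusted p of 0.54 to 0.92.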
